A study of Mus musculus with 2 samples.

Results

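The genes described here were the chemokine ligands and the atypical chemokine receptors of mouse skeletal muscle. They were chosen by symbol alone, as every feature of the deposited matrices named Ccl, Cxcl, Xcl, Cx3cl or Ackr followed by a number and at most one letter. That rule took 48 of 27998 features, which carried 42 symbols, 38 of them ligands and 4 of them receptors. Expression was measured by droplet-based single-cell RNA-seq in mononuclear cells of 2 muscles of C57BL/6J mice, the quadriceps (a limb muscle) and the diaphragm (the respiratory muscle). The experiment used 10 mice, cells of several animals were pooled for each muscle before loading, and each muscle gave 1 library. No genotype, treatment or age distinguished the groups in the labels. The tissue was digested with collagenase B and dispase II, cells were taken from a density gradient, and viable cells were gated on light scatter. Muscle fibres are too large for this assay, so the libraries held the cells between the fibres.

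Chemokines are small secreted proteins that draw leukocytes along gradients by binding G protein-coupled receptors on them. Atypical chemokine receptors bind the same ligands without the usual G protein signal, and they internalise, transport or store the ligand, which shapes the gradient. Fibro-adipogenic progenitors (FAPs) are Pdgfra-positive mesenchymal cells of the muscle interstitium that make matrix, support myogenic stem cells and can form fibroblasts or adipocytes.

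In quadriceps 50854519 unique molecular identifiers (UMIs) were counted over 5159 barcodes, and in diaphragm 28545242 over 2499. After limits on total UMIs, 5010 and 2430 barcodes were kept, with medians of 9880.5 and 11983.5 UMIs. Mitochondrial genes took over 5% of the UMIs in 2839 kept quadriceps barcodes and 768 kept diaphragm barcodes. These barcodes were kept because they held nearly all smooth muscle-like cells (1203 of 1210 in quadriceps). In quadriceps they also held most satellite-like (159 of 179), Schwann-like (130 of 148), B-like (181 of 212) and T-like cells (92 of 117). The same held for tenocyte-like (85 of 105) and endothelial-like cells (44 of 55). With these barcodes left out, 11 endothelial-like and 20 satellite-like cells of quadriceps remained, so levels in those classes rest largely on them. The libraries shared 5 barcode sequences. Cells were put in classes from raw UMIs of marker genes, and class names end in "-like" since they rest on those lists alone. FAP-like cells were the largest class, with 2533 cells in quadriceps and 2165 in diaphragm, and all 8 FAP markers exceeded 50 UMIs per 1000000 UMIs of the class (CPM) in them. In quadriceps the other classes of at least 20 cells were smooth muscle-like (1210 cells), B-like (212), satellite-like (179), Schwann-like (148), T-like (117), tenocyte-like (105), NK-like (75), myeloid-like (57) and endothelial-like (55). In diaphragm only T-like (61), smooth muscle-like (45) and B-like (45) cells joined the FAP-like cells above that size. Levels are UMIs of a class summed and given as CPM of all its UMIs, a scale on which genes may be set side by side because the 3' ends of transcripts were counted. With 1 library per muscle no test was possible, and intervals in parentheses are 95% exact Poisson intervals of the counts, or exact (Clopper-Pearson) intervals of shares. They cover counting error only. The spread between cells is left out of them, so they are too narrow for a gene whose UMIs lie in few cells. The spread between animals is left out too and was not measured.

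Of the 48 features, 21 reached 50 CPM in a class of at least 20 cells, against 24.8% of all features. Another 15 had at least 1 UMI and stayed below that level, and 12 had none in either library. Of those 12, 8 were features of Ccl19, Ccl21a, Ccl21b, Ccl21c or Ccl27a, symbols that the files list more than once. For Ccl19, Ccl21a and Ccl27a all UMIs were counted under 1 feature, and since such copies are near-identical, the copy of origin is uncertain. The other 4 were Ccl20, Ccl22, Ccl26 and Cxcl15. Among the 15 with a low level, 7 had 1 to 30 UMIs over both libraries. Within the 21 members, 10 were led by one class, which means a level at least 4-fold that of every other class of at least 20 cells. The class had to lead in each library where it had at least 20 cells. Of all genes at 50 CPM, 13.3% were led in that way. For every led member but Ccl11 the lead rested on quadriceps alone. In diaphragm, where NK-like and myeloid-like cells were too few to be compared, T-like cells led Xcl1, Ccl5 and Cxcl2.

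FAP-like cells held most transcripts of the members, ligands and receptors together, in both muscles by number. They also held most UMIs of each library, with 26174094 of 50854519 in quadriceps and 26631961 of 28545242 in diaphragm. The number therefore goes with the size of the class. By CPM, NK-like, endothelial-like and myeloid-like cells were above FAP-like cells in both muscles, in diaphragm on few cells. Together the members took 100006 UMIs in quadriceps FAP-like cells (3821 CPM) and 63272 UMIs in diaphragm FAP-like cells (2376 CPM). Cxcl14 (chromosome 13, 56288643 to 56296551, GRCm38), a constitutively made chemokine of epithelia and stroma, was the most abundant member there. Its level was 1536 CPM (1521 to 1551) in quadriceps and 553 CPM (545 to 562) in diaphragm. Ccl11 (eotaxin), which attracts eosinophils through CCR3, was the next most abundant ligand, with 1052 CPM (1040 to 1065) in quadriceps and 391 CPM (383 to 398) in diaphragm, where the receptor Ackr3 lay above it. Ccl11 was the 1 member led by FAP-like cells in both libraries. Its next class was tenocyte-like in quadriceps, at 48.6 CPM, and smooth muscle-like in diaphragm, at 4.04 CPM. After each cell had been thinned to 1000 UMIs, 50.4% (48.4 to 52.4) of quadriceps FAP-like cells had a Ccl11 UMI. In B-like cells, which are not a source of this ligand, that share was 1.42% (0.293 to 4.08). Median depths before thinning were 10301 and 2999.5 UMIs, and the shares unthinned were 81.2% and 3.30%.

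Cxcl12, the ligand of CXCR4 that retains haematopoietic cells and progenitors in stroma, was at 302 CPM (295 to 309) in quadriceps and 192 CPM (187 to 198) in diaphragm FAP-like cells. Unlike Ccl11 it was also found in other classes. In quadriceps, endothelial-like cells had 130 CPM (81.5 to 197), smooth muscle-like cells 112 CPM, tenocyte-like cells 92.0 CPM and satellite-like cells 63.2 CPM of Cxcl12, and in diaphragm smooth muscle-like cells had 78.8 CPM. Ackr3 (chromosome 1, 90203980 to 90216751), an atypical receptor that takes up CXCL12, was at 509 CPM (501 to 518) and 447 CPM (439 to 456). FAP-like cells thus carried both the ligand and its atypical receptor at high level in both libraries. In quadriceps, Ackr3 was close to that level in endothelial-like cells (461 CPM, 55 cells), and the ratio of 1.11 between the classes had an interval of 0.885 to 1.40. Ccl2 and Ccl7, the CCR2 ligands that draw monocytes, were at 106 and 35.9 CPM in quadriceps and at 126 and 81.9 CPM in diaphragm FAP-like cells. Cxcl16, a membrane-bound ligand of CXCR6, was at 29.4 CPM in quadriceps and 45.5 CPM in diaphragm FAP-like cells.

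**Figure D1:**
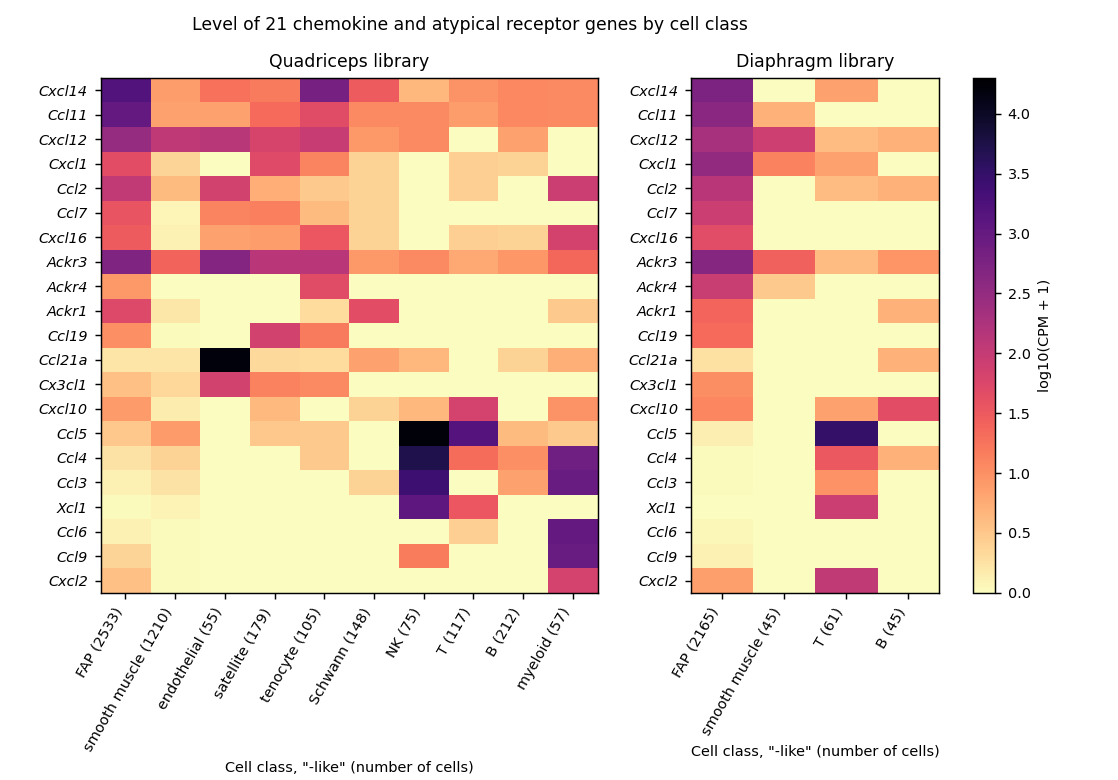
Levels of the 21 members that reached 50 CPM in a class of at least 20 cells, as log10(CPM + 1), by cell class (columns, with the number of cells) in the quadriceps library (left) and the diaphragm library (right). Cxcl14, Ccl11 and Ackr3 are dark in FAP-like cells of both panels, while Ccl5, Ccl4, Ccl3 and Xcl1 are dark in NK-like cells and Ccl21a in endothelial-like cells.

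The neutrophil chemokines Cxcl1, Cxcl2 and Cxcl3 bind CXCR2 and share a run of genes on chromosome 5 with Cxcl5 and Cxcl15 (90759360 to 90905938, GRCm38). In FAP-like cells they were unequal. Cxcl1 had 1173 UMIs in quadriceps and 8454 in diaphragm, Cxcl2 had 69 and 169, and Cxcl3 had none in either. Because the level of Cxcl1 in FAP-like cells differed most between the muscles among ligands of at least 20 CPM, their upstream sequences are shown. The stretches below come from RefSeq (GRCm38.p6), run from base 130 to base 31 before the RefSeq gene start on the plus strand, and have in capitals GGGAATTTCCC, the longest run of bases that the 3 promoters share, which holds a match to the binding motif of NF-kB.
Cxcl1: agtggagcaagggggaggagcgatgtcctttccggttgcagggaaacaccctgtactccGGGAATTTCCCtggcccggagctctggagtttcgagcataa
Cxcl2: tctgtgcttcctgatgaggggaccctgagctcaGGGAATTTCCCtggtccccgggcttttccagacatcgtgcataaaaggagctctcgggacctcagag
Cxcl3: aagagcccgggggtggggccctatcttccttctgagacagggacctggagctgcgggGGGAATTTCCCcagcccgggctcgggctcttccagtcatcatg
They lie at chr5:90891115-90891214 (Cxcl1), chr5:90903769-90903868 (Cxcl2) and chr5:90785971-90786070 (Cxcl3), and the run starts 71, 97 and 73 bases before the gene. It was chosen because these promoters share it, so its presence in them is no finding. On either strand GGGAATTTCCC occurred in the 250 bases before the start in 14 of 32851 promoters of the table (0.0426%). Promoters were listed for 31 of the 42 member symbols, 37 in all, and the run was in none of the other member promoters. TGANTCA, the palindromic AP-1 motif, was in 6.75% of all promoters and in 4 member promoters, those of Ccl27a, Ccl27b, Ccl9 and Cxcl10. The same run thus lay before a gene with 8454 UMIs in diaphragm FAP-like cells (Cxcl1) and before one with none (Cxcl3). A match of letters is a description of the sequence and says nothing of binding in these cells.

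NK-like and myeloid-like cells of quadriceps carried other ligands, whose level summed over all ligands was 26142 CPM in NK-like and 3914 CPM in myeloid-like cells, against 3224 CPM in FAP-like cells. In the 75 NK-like cells of quadriceps, Ccl5 was at 17060 CPM, and all 75 cells had a UMI of it after thinning to 1000 UMIs. Ccl4 was at 5235 CPM, Ccl3 at 2633 CPM and Xcl1, the ligand of XCR1 on cross-presenting dendritic cells, at 1146 CPM in the same cells. Ccl5 draws T cells and eosinophils. Ccl4, Ccl5 and Xcl1 were led by NK-like cells, whereas Ccl3 was not, because myeloid-like cells had 937 CPM of it. In diaphragm the NK-like class held 6 cells. Their levels were 12273 CPM of Ccl5, 4538 CPM of Ccl4, 3885 CPM of Xcl1 and 1547 CPM of Ccl3, so the same 4 ligands were present in both muscles. Ccl5 was also the leading ligand of T-like cells, at 1481 CPM in quadriceps and 3180 CPM in diaphragm. It came from few of them, with a UMI in 17 of 117 quadriceps and 16 of 61 diaphragm T-like cells, and 50% of its UMIs lay in 4 and 2 cells. Xcl1 was at 33.6 and 83.7 CPM in T-like cells. Cxcl10, a CXCR3 ligand, reached 65.5 CPM in quadriceps T-like cells on 39 UMIs. A UMI of it was found in 2.56% of the 117 cells, so this level describes few cells and not the class.

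In quadriceps myeloid-like cells, Ccl6 (1020 CPM) and Ccl9 (904 CPM), rodent ligands of CCR1, were both led by the class. Ccl4 was at 759 CPM, Ccl2 at 81.6 CPM, Cxcl16 at 67.3 CPM and Cxcl2 at 65.3 CPM. Ccl6 and Ccl9 were spread over the class, with a UMI in 48 and 52 of the 57 cells, whereas 3 cells held 50% of the Ccl4 UMIs. Cxcl2 UMIs in the class came from 2 cells, although the class led the gene in quadriceps. In diaphragm, T-like cells had 110 CPM of Cxcl2 against 6.35 CPM in FAP-like cells, with a UMI in 4.92% of the 61 T-like cells. The 9 neutrophil-like cells of quadriceps, too few to be called, had 6342 CPM of Cxcl2 and 3926 CPM of Ccl6. Among 7 myeloid-like cells of diaphragm, Cxcl2 was at 4590 CPM, Ccl6 at 1552 CPM, Ccl2 at 1561 CPM and Ccl7 at 1015 CPM. These 547 UMIs of Cxcl2 and 121 UMIs of Ccl7 each came from 2 cells, so the diaphragm levels describe those cells and not the class.

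Endothelial-like cells split by lymphatic markers (Prox1, Lyve1, Flt4 and Mmrn1). Ccl21a, the CCR7 ligand of lymphatic vessels, was at 16053 CPM in the 55 quadriceps cells and at 14658 CPM in the 10 diaphragm cells. All 2716 UMIs in quadriceps lay in the 19 cells with at least 2 lymphatic markers, 18 of which had a UMI, and the other 36 cells had none. Reads of Ccl21a could also stem from its copies, which were listed at 0. Ackr2, a scavenger of inflammatory CC chemokines known in lymphatic endothelium, had 7 UMIs in the class, all in those 19 cells. Cx3cl1 (fractalkine), the ligand of CX3CR1, had 12 UMIs (70.9 CPM), and all 12 lay in the other 36 cells. Ackr3 did not follow that split, with 384 CPM (255 to 555) in the lymphatic part and 519 CPM (385 to 684) in the rest. Ackr1, which marks venules in many tissues, had no UMI in endothelial-like cells of either library. In quadriceps a count of 0 allows up to 17.7 CPM over all 55 cells. Only 6 of them had at least 2 venous markers, and the limit for those 6 alone is higher and was not computed.

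Smaller sources were found in the remaining quadriceps classes. Ccl19, a CCR7 ligand, was led by satellite-like cells, the muscle stem cells, at 71.9 CPM on 66 UMIs, against 14.5 CPM in tenocyte-like and 8.83 CPM in FAP-like cells. The same cells had 129 CPM of Ackr3 and 50.1 CPM of Cxcl1. Tenocyte-like cells had 655 CPM of Cxcl14, 128 CPM of Ackr3 and 48.6 CPM of Ackr4, and 6 of the 105 cells held 50% of the Cxcl14 UMIs. Schwann-like cells had 43.7 CPM of Ackr1 on 30 UMIs, next to 51.0 CPM in FAP-like cells. The Ackr1 gene overlaps Cadm3 on the same strand, so reads of the overlap could be counted for either gene. Ccl27a was below 50 CPM everywhere, at 45.2 CPM in Schwann-like, 25.3 CPM in smooth muscle-like and 15.9 CPM in FAP-like cells.

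The order of CC ligands along chromosome 11 followed these sources in part. In the run from 82035571 to 82305690, Ccl2, Ccl7, Ccl11 and Ccl8 had their highest quadriceps level in FAP-like cells, among classes of at least 20 cells. For Ccl2 the next class was myeloid-like, and the ratio of 1.29 had an interval of 0.948 to 1.82. Ccl12 and Ccl1 of that run had 1 UMI each in quadriceps. In diaphragm, Ccl12 had 15 UMIs in the 7 myeloid-like cells and none in FAP-like cells. In the run from 83525778 to 83664683, Ccl5, Ccl3 and Ccl4 had theirs in NK-like cells, and Ccl9 and Ccl6 in myeloid-like cells. Neighbouring genes are not independent, and the pattern is given as a description.

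The comparison of the muscles in FAP-like cells asked which members differed by at least 2-fold, among those with at least 20 CPM in the higher muscle. Of 13 members that met this limit, 4 were higher in diaphragm (background 3.01% of 6439 genes) and 5 were lower (background 2.8%). The median log2 fold of the 13 was -0.19, against -0.11 for all genes tested. Muscle, pool of animals and library cannot be told apart in this comparison.

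Ackr4 (chromosome 9, 104084157 to 104126933), an atypical receptor that removes CCL19, CCL21 and CCL25, had the largest fold. It was at 7.14 CPM (6.16 to 8.25) in quadriceps and 88.6 CPM (85.1 to 92.3) in diaphragm, a ratio of 12.4 (10.7 to 14.5). Cxcl1 was at 44.8 CPM (42.3 to 47.5) and 317 CPM (311 to 324), a ratio of 7.08 (6.66 to 7.54). Ccl19 and Ccl7 were 2.30-fold (1.97 to 2.69) and 2.28-fold (2.11 to 2.47) higher in diaphragm. Of the Ccl7 UMIs, 50% lay in 8 quadriceps and 17 diaphragm cells, a spread that its interval leaves out. Ackr4 and its ligand Ccl19 were thus both higher in the same library, which did not hold for the other ligands named. Ccl25 was at 13.8 CPM in quadriceps and 11.2 CPM in diaphragm FAP-like cells. Ccl21a was at 0.688 and 0.789 CPM, a ratio of 1.15 (0.582 to 2.28). Both lay below the limit of the comparison. In the other direction, Cxcl13, the CXCR5 ligand of B cell follicles, was 3.33-fold lower in diaphragm (45.5 against 13.7 CPM). Cxcl14 was 2.78-fold lower, Ccl11 2.69-fold, Ackr2 2.66-fold (29.2 against 11.0 CPM) and Ackr1 2.16-fold (51.0 against 23.5 CPM). The 4 members that did not pass 2-fold were Ackr3 (1.14-fold lower), Cxcl12 (1.57-fold lower), Cxcl16 (1.55-fold higher) and Ccl2 (1.19-fold higher). Ackr1 and Ccl19 lay just past the 2-fold lines, whereas Cxcl12 and Cxcl16 did not pass them under any of 12 alternative settings. Ccl19 and Ackr1 each passed 2-fold under 10 of 12 alternative settings, and with a pseudocount of 5 CPM their log2 folds were 0.87 and -0.97. Cxcl13 and Ackr2 did not reach 50 CPM in any class and are named because they passed these comparisons, after their values had been seen.

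**Figure D2:**
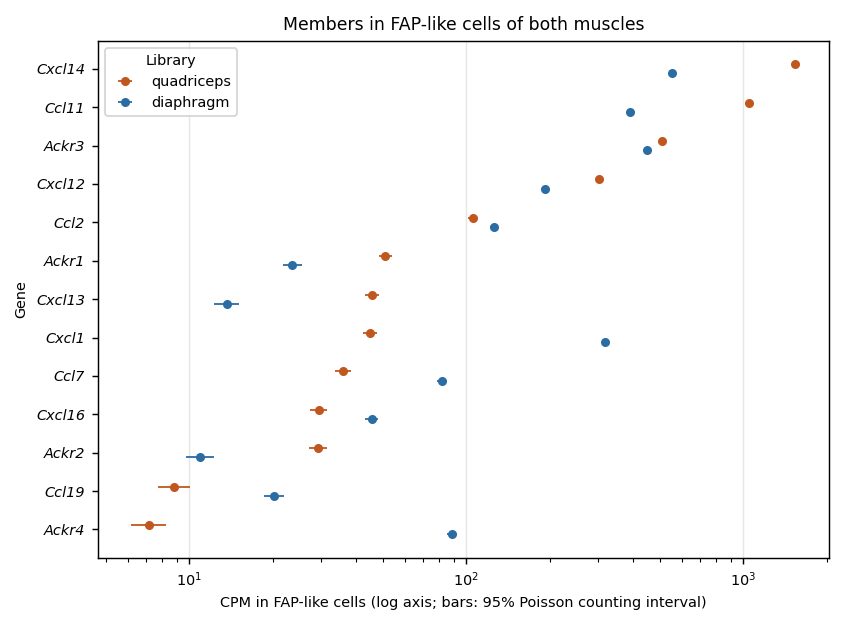
Levels in FAP-like cells of quadriceps (orange) and diaphragm (blue) on a log axis in CPM, for the 13 members with at least 20 CPM in the higher muscle, with bars for the 95% Poisson counting interval. Ackr4 lies at 7.14 CPM in quadriceps and 88.6 CPM in diaphragm and Cxcl1 at 44.8 and 317 CPM, while Cxcl14 and Ccl11 lie lower in diaphragm.

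The shares of FAP subtypes differed between the libraries, so the folds were also taken within each subtype. FBN1+ cells (Fbn1, Mfap5, Pcolce2 and Loxl1 over Lum, Apod, Smoc2 and Col15a1) made up 44.7% of FAP-like cells in quadriceps and 32.7% in diaphragm, and LUM+ cells 39.5% and 33.1%. Ackr4 was higher in diaphragm within both, by 3.18 (FBN1+) and 4.47 (LUM+) on the log2 scale with a pseudocount of 1 CPM. Cxcl1 was higher by 3.54 and 2.43, and Ccl11 was lower in both, with log2 folds of -1.09 and -1.39. Cxcl14 was lower by 2-fold within LUM+ cells (-1.38) but not within FBN1+ cells (-0.54). Ackr1 passed 2-fold within neither subtype, with log2 folds of -0.89 (FBN1+) and -0.96 (LUM+). Ackr2 and Cxcl13 passed within FBN1+ cells (-1.07 and -1.38) but not within LUM+ cells (-0.61 and -0.80). Ccl19 passed within LUM+ cells (1.10) but not within FBN1+ cells (0.68). Where Ackr2, Cxcl13 and Ccl19 did not pass, their levels were below 20 CPM in both muscles. Ccl7 was higher within FBN1+ cells (2.53) with -0.35 within LUM+ cells, and Ccl2 had log2 folds of 1.92 and -2.62. The near-equal Ccl2 levels of the whole class thus held opposite CPM folds inside it. The LUM+ fold rested on few cells, as 2 LUM+ cells of quadriceps had at least 267 of the 1326 Ccl2 UMIs each. After thinning, a Ccl2 UMI was found in 1.30% of LUM+ cells in quadriceps and 1.26% in diaphragm. In FBN1+ cells these shares were 1.24% and 5.37%.

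Immediate early genes, which respond within minutes to many stimuli including tissue dissociation, were higher in diaphragm as well. All 11 listed genes passed 2-fold with a median log2 fold of 2.81, and their summed level was 2266 CPM in quadriceps and 14093 CPM in diaphragm FAP-like cells. Fos differed 11.1-fold and Atf3 23.9-fold, so folds of this size were not particular to Ackr4 or Cxcl1. Of 8 NF-kB response genes tested, 3 were higher (Nfkbiz, Il6 and Ptgs2), and 0 of 6 interferon response genes passed 2-fold in either direction. Muscle fibre transcripts summed to 16.4 CPM in quadriceps and 32.4 CPM in diaphragm FAP-like cells. The part of these genes in the differences of the members was not tested.

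The FBN1+ and LUM+ subtypes were compared next, because they are the division of FAPs that the study set out. In both muscles 11 members had at least 20 CPM in the higher subtype. Of these, 4 were at least 2-fold higher in FBN1+ cells of both muscles (background 2.31%) and 2 were at least 2-fold lower in both (background 1.84%). Atypical receptors formed most of the first group. In quadriceps Ackr3 was at 792 CPM in FBN1+ cells, against 203 CPM in LUM+ cells, a ratio of 3.90 (3.71 to 4.10), and at 729 and 228 CPM in diaphragm, a ratio of 3.20 (3.04 to 3.37). Ackr1, the Duffy antigen, which binds many inflammatory chemokines, was at 90.1 and 9.51 CPM in quadriceps and at 48.0 and 4.39 CPM in diaphragm. Ackr2 was at 52.3 and 4.65 CPM in quadriceps and at 24.4 and 2.71 CPM in diaphragm. Ackr4 was at 123 and 49.9 CPM in diaphragm, while its quadriceps levels of 12.7 and 1.30 CPM stayed below the limit. All 4 atypical receptors thus had the higher level in FBN1+ cells of both libraries, although Ackr4 was not called in quadriceps. Cxcl13 was the ligand of the group, at 71.9 and 16.2 CPM in quadriceps and 27.1 and 8.92 CPM in diaphragm.

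LUM+ cells held more of several ligands. In quadriceps Cxcl14 was at 3808 CPM in LUM+ cells, against 106 CPM in FBN1+ cells (log2 fold -5.15). In diaphragm these levels were 1461 and 72.7 CPM (log2 fold -4.31). The gene was not used to define the subtypes. Cxcl16 was at 13.4 and 48.3 CPM in quadriceps and at 29.4 and 60.9 CPM in diaphragm, where it passed 2-fold under 7 of 12 alternative settings. A further 3 ligands, Ccl11 (695 and 1460 CPM), Cxcl12 (179 and 452 CPM) and Cxcl1 (26.5 and 73.3 CPM), were at least 2-fold lower in FBN1+ cells in quadriceps. Their diaphragm log2 folds had the same sign and did not reach 2-fold (-0.78, -0.91 and -0.32). Ccl19 was lower in FBN1+ cells of diaphragm, at 8.18 against 32.3 CPM in LUM+ cells, the reverse of its receptor Ackr4. In quadriceps 4 members were higher (background 4.54%) and 6 lower (background 5.63%) in FBN1+ cells of 11, with a median log2 fold of -1.03 against -0.02 for all genes. In diaphragm 8 were higher (background 2.87%) and 3 lower (background 2.21%) of 14, with a median of 1.40 against 0.01.

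Ccl2, Ccl7 and Cxcl10 separated the muscles. In quadriceps Ccl2 was at 69.9 CPM in FBN1+ cells and 143 CPM in LUM+ cells, but at 268 and 22.5 CPM in diaphragm, so the log2 folds were -1.03 and 3.52. The quadriceps fold turned to 0.52 when classes were taken from clusters. Ccl7 had folds of -0.23 and 2.65, with 169 CPM in diaphragm FBN1+ cells and 26.0 CPM in LUM+ cells. Cxcl10 was at 25.4 and 4.01 CPM in diaphragm and below the limit in quadriceps. After thinning, a Ccl2 UMI was found in 1.24% (0.678 to 2.07) of FBN1+ and 1.30% (0.694 to 2.21) of LUM+ cells of quadriceps, and in 5.37% (3.83 to 7.30) and 1.26% (0.576 to 2.37) in diaphragm. In smooth muscle-like cells of quadriceps, with a median depth of 14515.5 UMIs, the thinned share was 0.0826%. Unthinned, the Ccl2 shares were 4.95% and 3.00% in quadriceps and 11.3% and 3.91% in diaphragm. Median depths were 11169 and 9436 UMIs in quadriceps and 13629 and 11111.5 UMIs in diaphragm. The quadriceps difference in CPM was therefore not seen as a difference in the share of cells, and it rested on few cells, as the spread over cells shows.

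**Figure D3:**
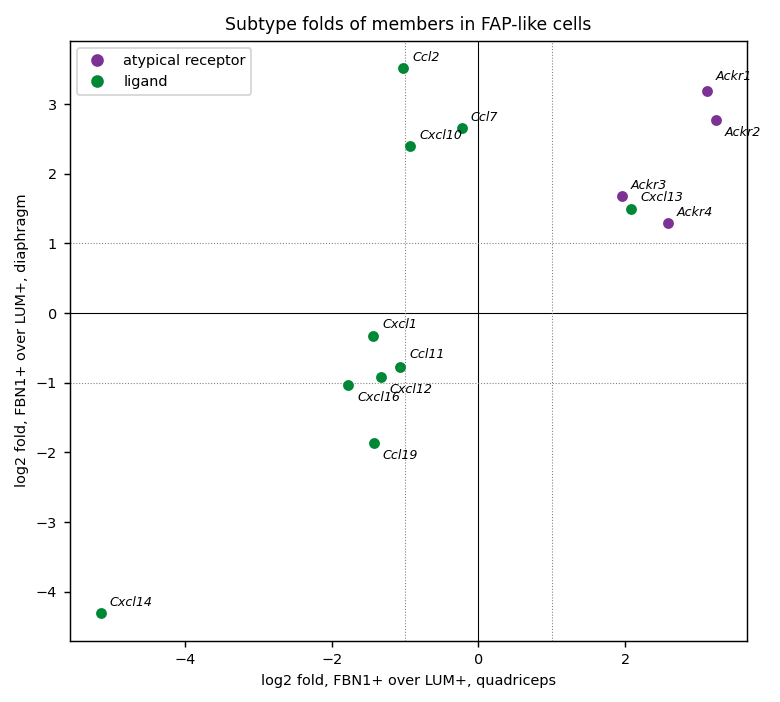
Log2 fold of FBN1+ over LUM+ FAP-like cells in quadriceps (x axis) and diaphragm (y axis), with atypical receptors in purple and ligands in green, and dotted lines at 2-fold. Atypical receptors and Cxcl13 lie at the upper right, Cxcl14 at the lower left, and Ccl2 at -1.03 in quadriceps and 3.52 in diaphragm; members under 20 CPM in quadriceps (Ackr4, Ccl19 and Cxcl10) are drawn too.

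Some members differed in how their transcripts were spread over FAP-like cells. Ccl11 and Cxcl12 were shared by many cells, with 50% of their UMIs in 425 and 411 of 2533 quadriceps cells and in 186 and 325 of 2165 diaphragm cells. For Ackr3 the numbers were 398 and 321. At the other end, 4 quadriceps cells held 50% of all Ccl2 UMIs of the class, with 267 to 504 UMIs each, and 6 diaphragm cells did so, with 179 to 540 UMIs each. Of the 4 quadriceps cells 1 was FBN1+ and 2 were LUM+, whereas 5 of the 6 diaphragm cells were FBN1+ and none LUM+. The same share lay in 8 and 17 cells for Ccl7, 6 and 5 for Cxcl10, and 21 and 4 for Cxcl13. Cells with any UMI were more numerous, with 104 and 150 for Ccl2, 160 and 265 for Ccl7, 44 and 54 for Cxcl10, and 188 and 34 for Cxcl13. Much of the transcript of these ligands was thus held by a few cells, while Ccl11 was found in most cells of the class in quadriceps (2058 of 2533) and in 1016 of 2165 in diaphragm. The top Ccl2 cells all had Ccl7 too. Over the class, Ccl7 was found in 46.2% of cells with a Ccl2 UMI and in 4.61% of the others in quadriceps, and in 43.3% and 9.93% in diaphragm. Cells with Ccl2 were somewhat deeper, with medians of 13060 against 10248 UMIs in quadriceps and 13142 against 12252 UMIs in diaphragm.

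**Figure D4:**
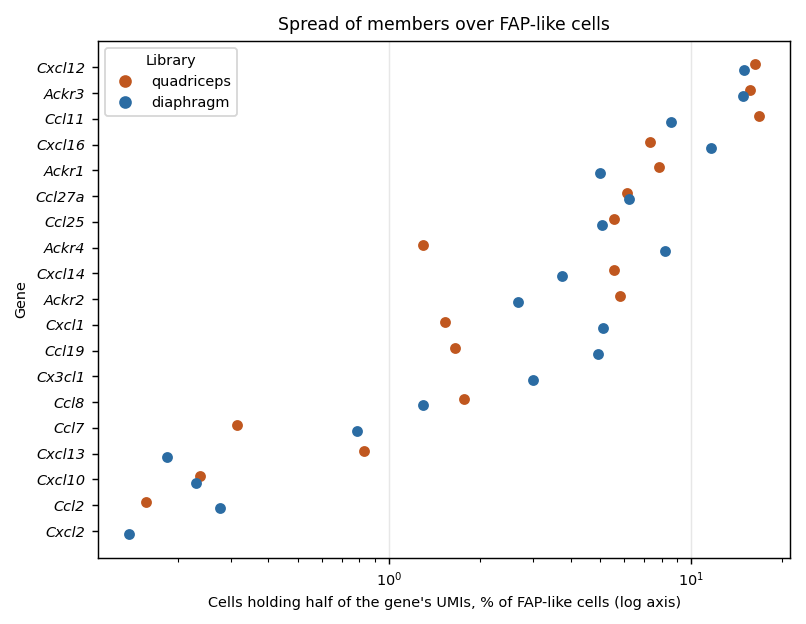
Percent of FAP-like cells that together hold 50% of a member's UMIs (log axis), for quadriceps (orange) and diaphragm (blue), for all 19 members with at least 100 UMIs in the class in a library, a limit that Cxcl2 and Cx3cl1 passed in diaphragm alone. Ccl11, Cxcl12 and Ackr3 lie near the right, and Ccl2, Cxcl10, Ccl7 and Cxcl13 lie below 1% in both muscles.

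Finer FAP subsets were set from small marker lists without chemokine genes, and named by those genes. The lists were chosen with earlier results of these data known. The member levels in them, that of Cxcl14 in the Hsd11b1 subset included, are therefore descriptions and no independent finding. Of 17 members that could be compared, 5 were at least 4-fold higher in a subset than in all other FAP-like cells of a muscle, and 4.21% of all genes were called in any subset. In quadriceps the share of all genes called was 1.47% in the Dmkn Sbsn, 0.149% in the Stmn4 Cmah, 0.259% in the Prg4 Clu, 0.911% in the Hsd11b1, 0.775% in the Gdf10 Sfrp1 and 1.35% in the Tnmd subset. In diaphragm it was 0.2% in the Stmn4 Cmah, 0.119% in the Prg4 Clu, 0.374% in the Hsd11b1, 0.238% in the Gdf10 Sfrp1, 0.296% in the Has1 Tnfaip6 and 0.289% in the Tnmd subset. Cxcl14 alone was called in the same subset of both muscles. It was at 5704 CPM in the Hsd11b1 subset against 614 CPM elsewhere in quadriceps, a ratio of 9.29 (9.10 to 9.48). In diaphragm it was at 3675 against 399 CPM, a ratio of 9.21 (8.90 to 9.54). Hsd11b1 encodes the enzyme that regenerates active glucocorticoid. It comprised 508 of the 2533 FAP-like cells in quadriceps and 124 of the 2165 in diaphragm. Apod, one of its markers, also served to define LUM+ cells. In the Gdf10 Sfrp1 subset of quadriceps (112 cells), Ccl19 was at 40.5 against 7.65 CPM and Cxcl13 at 168 against 41.0 CPM. The Cxcl13 ratio of 4.11 had an interval of 3.46 to 4.86, which spans the 4-fold limit. Neither was called in that subset of diaphragm (310 cells), where the ratios were 1.98 for Ccl19 and 2.53 for Cxcl13. Ackr2 was at 49.0 against 8.01 CPM in the Stmn4 Cmah subset of diaphragm (134 cells), which was mostly FBN1+. In quadriceps Ackr2 was not called, at 63.6 against 21.6 CPM in the Stmn4 Cmah and 77.3 against 23.9 CPM in the Dmkn Sbsn subset.

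The Has1 Tnfaip6 subset, named for hyaluronan synthase and a hyaluronan-binding protein of inflammation, held 230 diaphragm cells but 11 quadriceps cells and was compared in diaphragm alone. Cxcl2 was at 44.1 against 1.61 CPM there and Cxcl13 at 50.5 against 9.04 CPM. Cxcl1 was at 863 CPM in it and at 108 to 331 CPM in the other diaphragm subsets of at least 20 cells, which did not make a 4-fold call against all other cells. The 3 cells that held 50% of the diaphragm Cxcl2 UMIs all belonged to the subset. For Cxcl13, 4 diaphragm cells held 50% of the UMIs, with 34 to 60 each, and 2 of them belonged to the subset. The subset had 150 Cxcl13 UMIs in all, so both levels rested on few cells. Immediate early genes summed to 21522 CPM in it, against 14093 CPM in all diaphragm FAP-like cells, and their part in these levels was not tested. Without the subset the log2 fold of Cxcl13 between the diaphragm subtypes was 0.54, below the 2-fold limit that it passed with all cells.

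**Figure D5:**
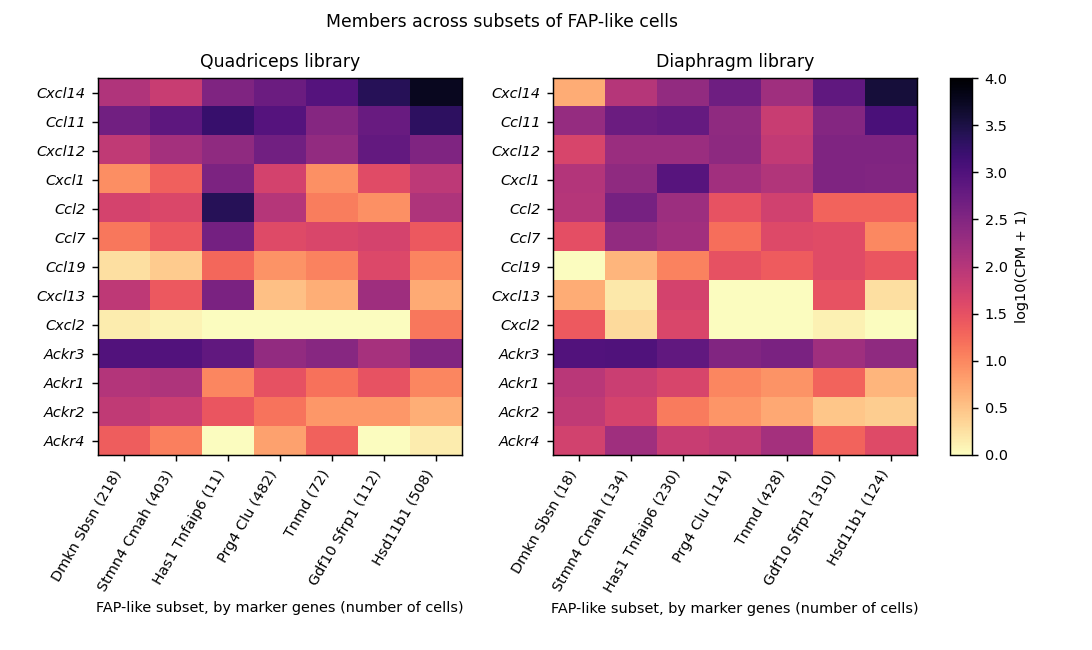
Levels of 13 members as log10(CPM + 1) over the FAP-like subsets (columns, with the number of cells) in quadriceps (left) and diaphragm (right). Cxcl14 is darkest in the Hsd11b1 subset of both muscles and Ackr3 in the Dmkn Sbsn and Stmn4 Cmah subsets; the Has1 Tnfaip6 subset of quadriceps has 11 cells and the Dmkn Sbsn subset of diaphragm has 18, and neither was compared.

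The conventional receptors of these ligands were not found in FAP-like cells at a comparable level. Of 20 chemokine receptors listed, 0 reached 50 CPM in FAP-like cells of either muscle, and their summed level was 8.02 CPM in quadriceps and 17.4 CPM in diaphragm. The sum for the ligands was 3224 and 1805 CPM. In all, 9 receptors reached 50 CPM in a class of at least 20 cells. Ccr2, the receptor of CCL2 and CCL7, was at 910 CPM in myeloid-like cells. Ccr7, the receptor of CCL19 and CCL21, was at 510 CPM in B-like cells of quadriceps and 851 CPM in those of diaphragm. Cxcr6, the receptor of CXCL16, was at 129 and 650 CPM in T-like cells. Cxcr4, the signalling receptor of CXCL12, was at 337 CPM in quadriceps B-like cells and at 76.3 CPM in satellite-like cells. Of 7 peptidases that can trim chemokines, 5 had at least 50 CPM in quadriceps FAP-like cells. Mmp2 was at 852 and 965 CPM, and Dpp4, which clips CXCL12 and CCL11, was at 215 CPM in quadriceps and 61.2 CPM in diaphragm, the 1 of 5 past 2-fold. Pf4, a platelet-type CXC chemokine outside the symbol rule, had 280 UMIs in quadriceps myeloid-like cells, with a counting interval of 506 to 642 CPM.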

How the data were processed

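The deposited values were raw counts of UMIs per gene and cell barcode in 2 libraries, which the authors made with Cell Ranger 3.0.0 on mm10 (per the submitters' processing notes, which also name Seurat). Whether counting used strand is not given in the sources used here. Barcodes had at least 1000 UMIs and, on the log10 scale, less than 3 scaled median absolute deviations above the median barcode. No mitochondrial limit or doublet caller was applied. Classes came from raw UMIs of marker genes, at thresholds set after marker sums were seen. Trbc2 and Iglc2 were not among the features. FBN1+ cells had a share of at least 0.6 of the summed scaled scores of both lists, and LUM+ cells at most 0.4. Of FAP-like cells, 427 in quadriceps and 662 in diaphragm lay near a limit. A subset needed a score of 1.5, and 1.5 times the next. Log2 folds used a pseudocount of 1 CPM, and calls the limits given in the text. Members with at least 50 CPM in a class of at least 20 cells were named. The members and lists were chosen with earlier results of these data known. Gene positions came from GENCODE M21. Python 3.11.15, numpy 2.4.6, scipy 1.17.1, pandas 2.3.3, scanpy 1.11.5, leidenalg 0.10.2 and matplotlib 3.10.9 were used, and the fold and class steps were tested on simulated data. Alternatives are given in the closing section. One receptor of the fixed list is not reported here by name.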

Additional observations from a re-analysis of the deposited data

Results flagged for a closer look

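Ccl2 had opposite subtype folds in the muscles. The log2 fold of FBN1+ over LUM+ FAP-like cells was -1.03 in quadriceps and 3.52 in diaphragm, and the difference was not tested. In quadriceps 4 cells held 50% of the Ccl2 UMIs and in diaphragm 6 did.

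Ccl1, a CCR8 ligand of activated T and mast cells, had 28 UMIs in the diaphragm library, none of them in a class. They lay in 3 unassigned cells, with 19 in 1 cell, and the quadriceps library had 1 UMI.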

How the results depend on the processing

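No paired analysis was possible because each muscle had 1 library and no result came from a test. Of 12 alternatives, 9 were planned and 3 (class thresholds doubled, subtype limits of 0.7 and 0.3, and FAP-like cells without the Has1 Tnfaip6 subset) were chosen after seeing the data. Of 84 counts of members, 75 stayed within 1.5 times the reported count. The 5 members called in FAP subsets became 8 with barcodes over 5% mitochondrial left out, 2 with classes by clusters and 3 with a pseudocount of 5 CPM. The 2 members lower in FBN1+ cells of both muscles became 1 with each cell weighted equally, with a pseudocount of 5 CPM, with class thresholds doubled and without the Has1 Tnfaip6 cells, since Cxcl16 fell short, and 4 with no floor on CPM. The 4 members higher in diaphragm became 7 with no floor. Of 456 single folds 1 reversed and 101 moved beyond their counting interval. The Ccl2 subtype fold in quadriceps went from -1.03 to 0.52 with classes by clusters, and its cause was not tested. Uncalled folds near 0 also changed sign, among them Ccl2 between muscles (-0.31 to 0.53). With clusters, the Cxcl13 subtype fold in quadriceps was 0.72, that of Ccl11 was -0.25, and that of Ackr4 in diaphragm was 0.87. Ccl19 and Ackr1 between muscles passed 2-fold under 10 of 12. Scrublet marked 95 quadriceps barcodes (1.84%) and 3 diaphragm barcodes (0.120%), too few for the caller to have worked in diaphragm. Ackr4 and Cxcl1 between muscles, Cxcl14 between muscles and subtypes, and Ackr1, Ackr2 and Ackr3 between subtypes stayed past 2-fold in the same direction under all 12. Depth limits members below 50 CPM and the diaphragm classes under 20 cells.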
